A study of Homo sapiens with 6 samples.

Results

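The LINC rows described here are the genes of one A673 count table that carry a placeholder symbol for a long intergenic noncoding RNA and were present above a low level. A row was taken if its name was LINC followed only by digits and if its mean CPM, the count scaled to the column total, reached 2 in the knockout libraries or in the parental libraries. Of 62700 rows in the table, 2286 carried such a name, and 128 of these met the level. The 128 rows stand for 127 symbols, because LINC01605 is listed under 2 gene identifiers. The level was met in both genotypes by 46 rows, in the knockout libraries only by 27 and in the parental libraries only by 55. The level that chose the rows was measured in the same libraries as the comparison, so a row that reached it in 1 genotype only had to differ. For those rows levels and fold changes are given as a description, with no p-value, and their calls enter only the counts over all 128 rows.

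A673 is a cell line grown from an Ewing sarcoma, a tumour of bone and soft tissue whose cells carry a fusion of EWSR1 with the ETS transcription factor gene FLI1. The series set 3 libraries of A673 cells labelled as EWS-FLI1 knockout beside 3 libraries of A673 cells labelled as parental control, with the fusion intact. Both kinds of cell were grown in DMEM with fetal bovine serum, and polyadenylated RNA was sequenced. The labels do not say how the knockout was made, whether it is 1 clone or a pool, or whether replicates are separate cultures. The p-values therefore reflect the spread among these 6 libraries, which may be technical.

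A LINC symbol is given to a long noncoding RNA gene that lies between coding genes and has no other name, so the series is held together by naming and not by function. As a rule such RNAs are capped, spliced and often polyadenylated like messenger RNAs, but hold no long reading frame. The symbol does not settle this for each row. The GENCODE 29 annotation lists LINC02693 and LINC03040 as coding genes and LINC02210 as a pseudogene. Many long noncoding RNAs are known to be made in only a few cell types. Some act in the nucleus on nearby or distant genes, some host microRNAs or encode short peptides, and for most no role is known.

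The libraries held between 301605666 and 342624492 estimated counts, and 3 counts in a library correspond to at most 0.00995 CPM, a bound on counting error alone. Levels in the text are CPM with the library size scaled by a trimmed mean of log ratios between libraries (TMM CPM), except where CPM of the column total is named. CPM is not divided by gene length, so an order of rows by CPM is an order of counts and not of molecules. EWSR1 had 240.6, 252.0 and 242.0 TMM CPM in the knockout libraries, against 300.0, 288.2 and 290.7 in the parental libraries, and FLI1 had 53.7, 54.8 and 50.8 in the knockout libraries against 39.6, 41.9 and 40.6 in the parental libraries. Counts per gene add reads of the fusion to those of its partner genes, so neither value checks the knockout label. All 8 Ewing sarcoma markers were lower in the knockout libraries, with a summed level of 276.4 to 287.0 TMM CPM there against 1651 to 1689 in the parental libraries. All 6 fibroblast markers were higher, at 54930 to 56590 in the knockout libraries against 361.0 to 382.8 in the parental libraries. The 5 skeletal muscle markers summed to at most 0.236 TMM CPM in any library. The 5 neuron markers were all lower, at 180.4 to 187.6 in the knockout libraries against 495.3 to 529.1 in the parental libraries. The 5 blood markers summed to 1.42 to 1.82 in the knockout libraries and 0.180 to 0.231 in the parental libraries. PTPRC was the only blood marker called, with means of 1.49 and 0.127. The 5 epithelial markers summed to 247.5 to 269.8 in the knockout libraries and 7.20 to 8.0 in the parental libraries, but did not move together. KRT8 and KRT18 were called higher and EPCAM lower, with log2 fold changes of 5.4, 5.2 and -3.3. CDH1 did not pass and KRT19 was not tested. In bulk RNA, fewer cells of a type and less RNA per cell cannot be told apart, and the part of these shifts in the LINC values was not tested.

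LINC RNA as a whole took a smaller share of the knockout libraries. All 2286 LINC rows, with no choice by level, held 0.0720%, 0.0736% and 0.0756% of the counts in the knockout libraries, against 0.144%, 0.144% and 0.146% in the parental libraries. The groups did not overlap, and the ratio of the mean shares was 0.510. An exact two-sided permutation test gave p = 0.1, which is the smallest value that 3 libraries against 3 allow. With collagen rows left out of the column total, the ratio was 0.547. On column totals, with no TMM, the median log2 fold change of all tested genes was also below 0, at -0.48. The lower share is therefore not read as particular to LINC rows. At least 10 counts were found on 831, 824 and 860 LINC rows in the knockout libraries, against 989, 999 and 1000 in the parental libraries. The knockout libraries held fewer counts in all, and the same number over all rows of the table was not taken.

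The 128 rows chosen by level held most of these counts. They took a mean of 0.0562% of the knockout libraries and 0.120% of the parental libraries. LINC01547 alone made up between 23.2% and 24.6% of their counts in the parental libraries. Without that row the shares were 0.0558% in the knockout libraries and 0.0913% in the parental libraries. In the knockout libraries no row stood out in this way. LINC00963 led there with between 7.60% and 8.10% of the counts, and the leading 10 rows held 41.7% to 42.9%, against 49.4% to 50.8% in the parental libraries.

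**Figure D1:**
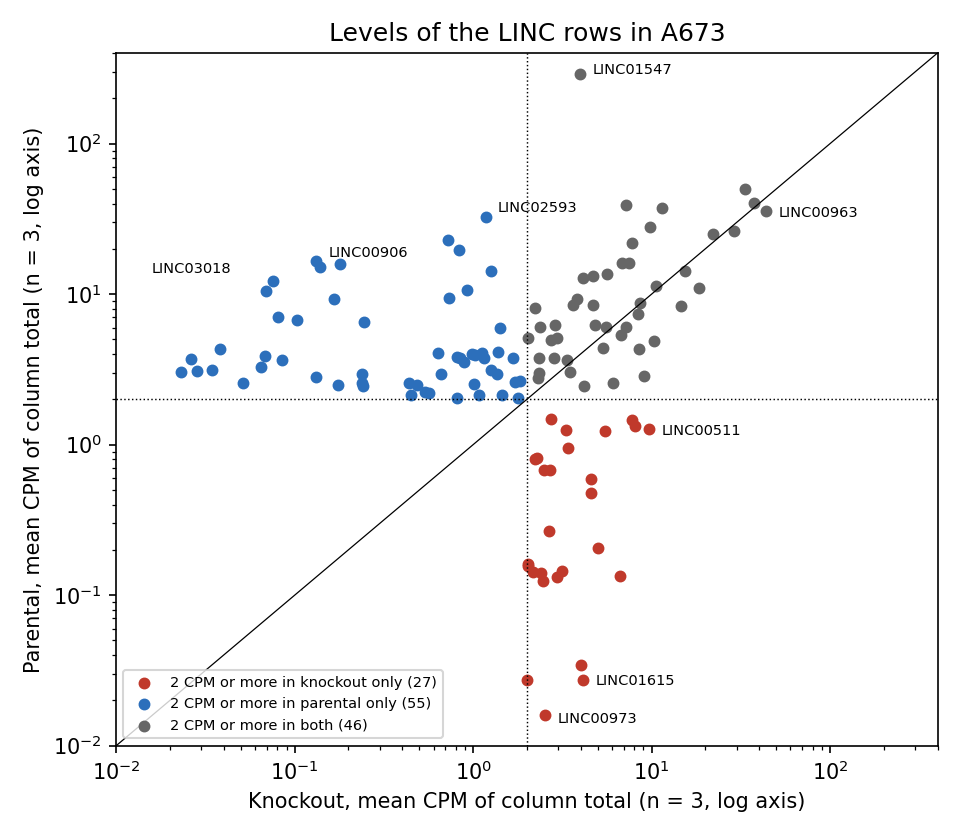
Mean CPM of the column total in the knockout libraries (x axis) and in the parental libraries (y axis) for the 128 LINC rows, on log axes with n = 3 each; the dotted lines mark the level of 2 CPM that chose the rows, and the solid line marks equal levels. Among the 46 rows above 2 CPM in both genotypes LINC01547 lies farthest from the solid line, and the empty lower left corner is where the rule removed rows.

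Across the 128 rows, 48 were higher and 72 were lower in the knockout libraries at an adjusted p under 0.05 by the edgeR quasi-likelihood test, and 8 did not pass. Among all 28485 tested genes 36.3% were called higher and 37.5% lower. The levels of the knockout and parental libraries did not overlap for 120 of the 128 rows, against 76.7% of all tested genes. Of these calls 27 are rows of knockout only and 51 rows of parental only, which the choice by level made differ, so the counts are not read as a property of LINC RNAs. The median log2 fold change was -0.69, against -0.06 over all tested genes. The fold changes spread widely: 18 rows lay below -5, 35 between -5 and -1, 41 between -1 and 1, 28 between 1 and 5, and 6 above 5. Called and beyond 1 in size were 34 rows higher and 53 lower, against 21.8% and 20.3% of all tested genes. Of the 2158 LINC rows below the level, 877 had enough counts to be tested, and 231 of those rose, 287 fell and 359 did not pass. Their median log2 fold change was -0.16.

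The 46 rows present in both genotypes divided evenly. The test called 21 higher and 21 lower, 4 did not pass, and the median log2 fold change was 0.06. The even split depends on the scaling: with the total count in place of TMM, 14 rows were called higher and 25 lower. That scaling moves the median of all tested genes by -0.42.

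LINC01547 changed most among them. It is a gene of 4 exons on the minus strand of chromosome 21, at chr21:44932814-44939913 in GRCh38. It had 4.69, 4.46 and 4.59 TMM CPM in the knockout libraries, against 258.8, 235.6 and 252.7 in the parental libraries. All 3 knockout libraries were far below all 3 parental ones. The log2 fold change was -5.77 with an SE of 0.062 (edgeR adjusted p = 3.63e-26), and under the scalings, filters, tests and left-out libraries tried it lay between -6.19 and -5.71.

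The start of LINC01547 lies 97 bases from that of the coding gene SLX9, on the opposite strand, and the start of LINC00205, further along the same chromosome, lies 152 bases from that of POFUT2. Both promoters are shown because they hold the same 8-base ETS motif, searched as CCGGAAGT on both strands, while their fold changes lie far apart. The windows of 300 bases around the start come from RefSeq on GRCh38.p14, at chr21:44939864-44940163 on the minus strand for LINC01547 and at chr21:45287802-45288101 on the plus strand for LINC00205. Capitals mark the motif.
LINC01547: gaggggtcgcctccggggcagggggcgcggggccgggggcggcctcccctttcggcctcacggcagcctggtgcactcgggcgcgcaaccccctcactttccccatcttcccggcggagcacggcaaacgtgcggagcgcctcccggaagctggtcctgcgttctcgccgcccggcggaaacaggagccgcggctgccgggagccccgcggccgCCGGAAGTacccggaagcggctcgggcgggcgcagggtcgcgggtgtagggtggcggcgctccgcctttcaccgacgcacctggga
LINC00205: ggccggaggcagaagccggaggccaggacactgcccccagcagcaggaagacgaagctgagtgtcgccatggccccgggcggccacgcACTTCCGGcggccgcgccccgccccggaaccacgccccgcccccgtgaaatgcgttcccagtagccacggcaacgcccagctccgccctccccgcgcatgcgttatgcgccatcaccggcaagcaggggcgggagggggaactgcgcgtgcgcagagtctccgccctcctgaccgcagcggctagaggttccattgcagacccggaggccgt

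LINC00205 had 42.6, 44.9 and 43.3 TMM CPM in the knockout libraries, against 35.0, 33.8 and 35.4 in the parental libraries. The groups did not overlap, and the log2 fold change was 0.33 with an SE of 0.049 (edgeR adjusted p = 3.08e-06). Its direction rests on the scaling, since the value was -0.10 with the total count. LINC00294, at 26.5, 25.6 and 24.9 TMM CPM in the knockout libraries against 19.9, 22.7 and 22.1 in the parental libraries, also turned with the total count. Its log2 fold change was 0.25 with TMM (edgeR adjusted p = 0.000423) and -0.17 with the total count. It overlaps the coding genes TCP11L1 and CSTF3, so part of its reads may be theirs.

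Other abundant rows of this group moved further. LINC00963, described in prostate cancer cells, had 52.5, 51.4 and 48.9 TMM CPM in the knockout libraries, against 31.8, 30.1 and 30.6 in the parental libraries. Every knockout library lay above every parental one, and the log2 fold change was 0.72 with an SE of 0.050 and an adjusted p of 1.41e-11 by edgeR. LINC00667 rose, with 34.1, 33.5 and 32.9 TMM CPM in the knockout libraries against 22.8, 22.8 and 22.5 in the parental libraries, a log2 fold change of 0.56 with an SE of 0.049 and an adjusted p of 7.69e-10 by edgeR. LINC01128 had 21.8, 21.9 and 20.6 TMM CPM in the knockout libraries, against 9.48, 9.79 and 9.30 in the parental libraries, a log2 fold change of 1.17 with an SE of 0.056 and an adjusted p of 1.68e-14 by edgeR. In the opposite direction, LINC02210 fell to 7.91, 8.64 and 8.42 TMM CPM in the knockout libraries, against 32.2, 34.2 and 34.6 in the parental libraries, a log2 fold change of -2.02 with an SE of 0.056 and an adjusted p of 9.84e-19 by edgeR. It lies upstream of CRHR1, a receptor of corticotropin-releasing hormone, and shares 418 exonic bases with the joined gene LINC02210-CRHR1. LINC00665 fell, with 13.1, 13.4 and 13.0 TMM CPM in the knockout libraries against 32.6, 32.6 and 31.5 in the parental libraries, a log2 fold change of -1.29 with an SE of 0.051 and an adjusted p of 6.37e-16 by edgeR.

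LINC01089, also called LIMT and described in mammary cells as repressed by epidermal growth factor, was less even between libraries. It had 7.91, 12.5 and 13.6 TMM CPM in the knockout libraries, against 26.0, 22.9 and 23.7 in the parental libraries. The first knockout library was the low one, though the groups did not overlap. This was not particular to LINC01089: MALAT1 had 391.0, 556.6 and 694.7 TMM CPM in the knockout libraries, and NEAT1 229.6, 389.9 and 446.1. Others were highest in that library, such as KCNQ1OT1 with 25.4, 15.1 and 19.6 and LINC00342 with 11.3, 8.37 and 9.31. Rows of either pattern were not counted, and the cause was not tested. The log2 fold change of LINC01089 was -1.09 with an SE of 0.23 (edgeR adjusted p = 0.0116), and without the first knockout library it was -0.88 (edgeR adjusted p = 2.23e-23). LINC01089 overlaps the coding gene RHOF on the same strand, which had a log2 fold change of -0.56. It also shares 2011 exonic bases with a noncoding gene on the opposite strand, so part of its reads may be theirs. LINC02693, one of the most abundant rows in both genotypes, changed little. It had 39.6, 38.6 and 38.0 TMM CPM in the knockout libraries, against 43.5, 42.0 and 43.1 in the parental libraries, a log2 fold change of -0.15 with an SE of 0.048 and an adjusted p of 0.00917 by edgeR, and the call was lost without the second knockout library.

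Several rows were nearly level between the genotypes. LINC01670 had 3.34, 3.28 and 3.23 TMM CPM in the knockout libraries, against 3.23, 3.33 and 3.25 in the parental libraries, with overlapping groups and a log2 fold change of 0.01 with an SE of 0.085 and an adjusted p of 0.957 by edgeR. LINC00265, LINC02035 and LINC01410 had log2 fold changes of 0.05, 0.07 and 0.17 and did not pass. Under the total count all 4 turned negative, to between -0.42 and -0.26. LINC00638, LINC01004 and LINC01002 met the level in the parental libraries only and had log2 fold changes of -0.17, -0.12 and -0.12, with overlapping groups.

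**Figure D2:**
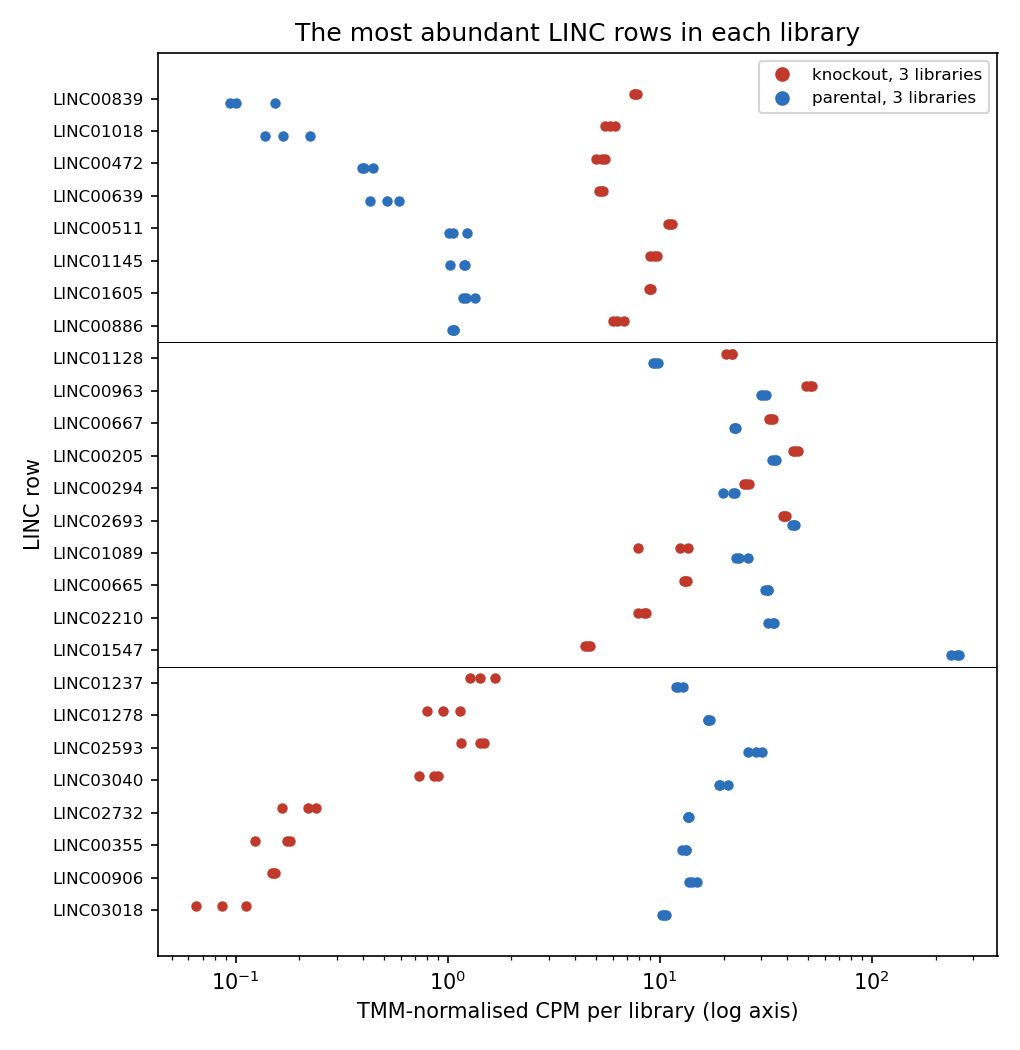
TMM CPM in each library (x axis, log scale) for 26 LINC rows, the most abundant of each class: the 8 highest that reached the level in knockout only (top), the 10 highest that reached it in both (middle) and the 8 highest that reached it in parental only (bottom). Each point is 1 library; knockout points are drawn just above parental points, the LINC01089 points of the knockout libraries are spread apart, and LINC01547 lies farthest right in the parental libraries.

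The 27 rows that reached the level in the knockout libraries only had log2 fold changes of 1.31 to 7.69, with a median of 3.74. LINC00511, reported as raised in several carcinomas, was the most abundant. It had 11.2, 11.4 and 11.0 TMM CPM in the knockout libraries, against 1.02, 1.06 and 1.24 in the parental libraries, a log2 fold change of 3.34 with an SE of 0.085. LINC00839 had 7.62, 7.81 and 7.60 TMM CPM in the knockout libraries against 0.0946, 0.153 and 0.10 in the parental libraries, a log2 fold change of 6.04 with an SE of 0.13. LINC00472, reported as lowered in breast tumours, had 5.0, 5.34 and 5.53 TMM CPM in the knockout libraries against 0.447, 0.402 and 0.396 in the parental libraries, a log2 fold change of 3.67 with an SE of 0.11. The annotation places the microRNA hairpins MIR30A and MIR30C2 inside LINC00472 on its strand. The other leading rows were LINC01145, LINC01605, LINC00886, LINC01018 and LINC00639, with log2 fold changes of 3.04, 2.85, 2.58, 5.04 and 3.36.

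Some rows of this group were close to the limit of detection in the parental libraries. LINC01615 had 4.54, 4.73 and 5.09 TMM CPM in the knockout libraries, against 0.0368, 0.0212 and 0.0125 in the parental libraries, and a log2 fold change of 7.66 with an SE of 0.19. LINC00973 had 2.98, 3.22 and 2.61 TMM CPM in the knockout libraries against 0.0158, 0.0159 and 0.010 in the parental libraries, a log2 fold change of 7.69 with an SE of 0.21. LINC01638 had 4.70, 4.67 and 4.60 TMM CPM in the knockout libraries against 0.0210, 0.0370 and 0.0301 in the parental libraries, a log2 fold change of 7.29 with an SE of 0.16. LINC01943 had a log2 fold change of 6.57 with an SE of 0.20. These are the rows at the lower edge of the plot of mean levels.

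The promoters of 3 rows of this group are shown because they hold the heptamer that AP-1 factors, dimers of JUN and FOS proteins, are known to bind. LINC00460, reported in carcinomas and listed here for its promoter after its values were seen, had 2.49, 2.57 and 2.50 TMM CPM in the knockout libraries, against 0.0998, 0.130 and 0.138 in the parental libraries. Its log2 fold change was 4.36 with an SE of 0.15. The windows of 300 bases come from RefSeq on GRCh38.p14, at chr6:169162940-169163239 on the minus strand for LINC01615, chr13:106376314-106376613 on the plus strand for LINC00460 and chr2:87459047-87459346 on the minus strand for LINC01943. Capitals mark TGACTCA or its reverse complement.
LINC01615: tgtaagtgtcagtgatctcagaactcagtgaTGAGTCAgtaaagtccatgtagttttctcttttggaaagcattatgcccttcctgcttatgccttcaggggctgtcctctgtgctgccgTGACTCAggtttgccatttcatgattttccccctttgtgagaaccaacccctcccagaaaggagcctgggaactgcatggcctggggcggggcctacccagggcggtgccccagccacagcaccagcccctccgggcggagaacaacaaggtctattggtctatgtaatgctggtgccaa
LINC00460: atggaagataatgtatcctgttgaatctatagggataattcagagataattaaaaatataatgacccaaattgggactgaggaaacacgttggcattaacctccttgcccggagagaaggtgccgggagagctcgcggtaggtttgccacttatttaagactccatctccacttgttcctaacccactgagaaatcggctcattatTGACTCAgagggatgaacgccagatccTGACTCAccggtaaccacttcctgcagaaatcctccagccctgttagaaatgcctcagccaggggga
LINC01943: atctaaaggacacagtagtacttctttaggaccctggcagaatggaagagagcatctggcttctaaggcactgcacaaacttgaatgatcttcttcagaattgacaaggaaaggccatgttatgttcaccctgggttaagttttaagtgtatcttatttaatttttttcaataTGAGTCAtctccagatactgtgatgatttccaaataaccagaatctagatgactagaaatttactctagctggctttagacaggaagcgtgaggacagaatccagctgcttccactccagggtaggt

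RefSeq windows were matched to 94 of the 127 symbols, 1 window per symbol, and 6 motifs were searched on both strands. The RefSeq start is not always that of GENCODE 29, from which positions and neighbours were taken. The window of LINC00460 begins at chr13:106376314, but its GENCODE 29 start is chr13:106374477. The window of LINC01358 begins at chr1:59020226, but its GENCODE 29 start is chr1:58933643. TGACTCA was found in 6 of 23 windows of the rows that reached the level in knockout only (26.1%), those of LINC00607, LINC02709, LINC00460, LINC01358, LINC01943 and LINC01615. It was found in 1 of 37 windows of the rows that reached it in parental only (2.70%), in 3 of 34 of the rows that reached it in both (8.82%) and in 1738 of 35116 RefSeq windows (4.95%). Among tested genes of any kind with a called log2 fold change above 1 the share was 5.74%, and below -1 it was 3.54%. Base composition moved with the class: the median GC content was 47.7% for knockout only, 59.3% for parental only and 61.3% for both, against 58.7% over all windows. Among windows under 60% GC, 6 of 16 in knockout only and 1 of 21 in parental only held the heptamer, against 7.08% of all such windows. The counts are small, the classes were set by level, and the presence of the letters is a description and not a binding site.

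CCGGAAGT, the high-affinity ETS octamer, was in 0 of 23 windows for knockout only, 2 of 37 for parental only and 5 of 34 for both, against 6.89% of the windows of tested genes and 4.14% of all windows. The windows of LINC00526 and LINC00667, both among the 5, overlap, so a site may be counted in each. GGAAGGAA holds 2 units of the GGAA tandem repeats that EWS-FLI1 is known to bind, so a match is not itself a longer repeat. It was in 2 of 23 windows for knockout only, 1 of 37 for parental only and 1 of 34 for both. That is 4.26% of the 94 windows, against 3.67% of all. It overlaps GGAA, the core of ETS sites, which was in 95.7% and 95.5%. GGAATG, bound by TEAD factors, was in 10.6% and 14%, and TATAAA, the TATA box, in 9.57% and 11.5%. Repeats farther from a start than the window were not searched.

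**Figure D3:**
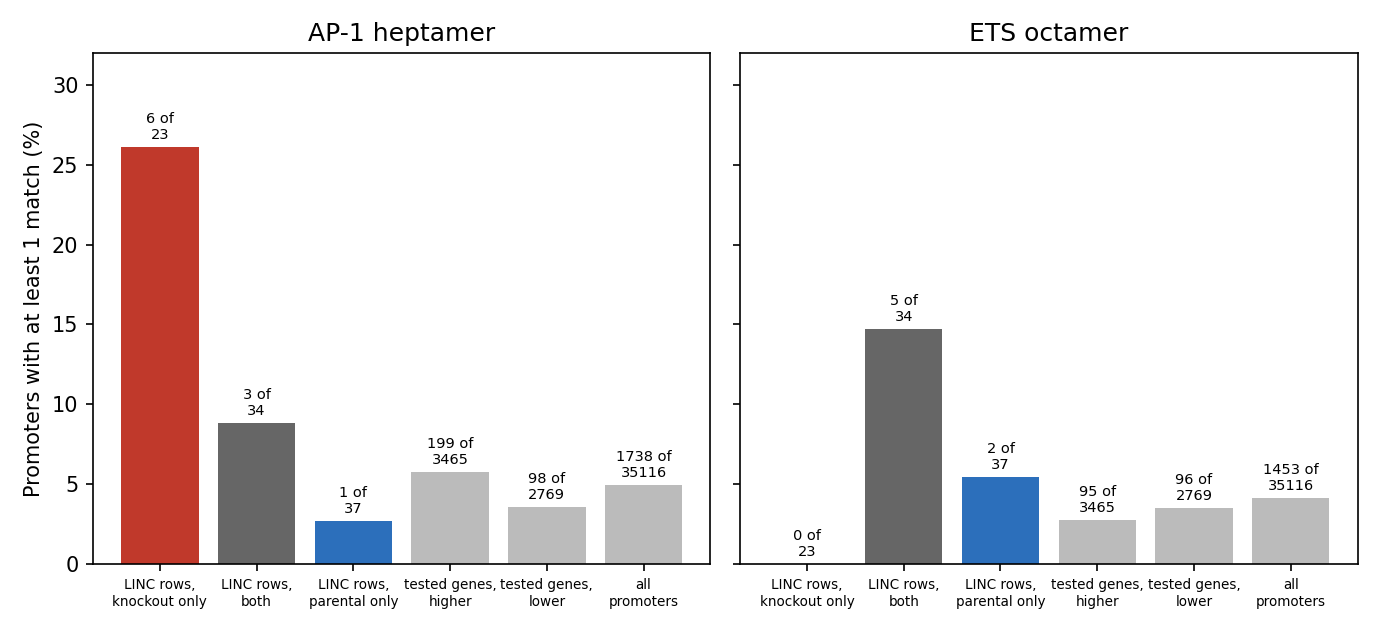
Percent of 300-base RefSeq promoter windows with at least 1 match to the AP-1 heptamer (left) or the ETS octamer (right), on either strand, for the LINC rows by the genotype in which they reached 2 CPM (coloured bars), for tested genes with a called log2 fold change beyond 1 in either direction and for all windows (grey). Counts stand above the bars; the AP-1 share is 26.1% in the knockout-only rows against 4.95% of all windows, from 6 windows.

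The 55 rows that reached the level in the parental libraries only had log2 fold changes from -6.90 to 0.23, with a median of -3.0. LINC02593 was the most abundant of them. It had 1.16, 1.42 and 1.49 TMM CPM in the knockout libraries, against 30.3, 26.2 and 28.4 in the parental libraries, a log2 fold change of -4.38 with an SE of 0.088. LINC00906 had 0.149, 0.154 and 0.152 TMM CPM in the knockout libraries against 13.8, 14.3 and 15.0 in the parental libraries, a log2 fold change of -6.56 with an SE of 0.098. LINC03018, with the lowest fold change of all 128 rows, had 0.0861, 0.112 and 0.0653 TMM CPM in the knockout libraries against 10.4, 10.8 and 10.3 in the parental libraries, and a log2 fold change of -6.90 with an SE of 0.13. LINC03040, LINC01278, LINC02732, LINC00355 and LINC01237 were the other abundant rows, with log2 fold changes of -4.57, -4.14, -6.03, -6.36 and -3.08. LINC00659, LINC01811 and LINC02378 had lower levels and log2 fold changes of -6.82, -6.70 and -6.61. LINC01977 reached 2 CPM of the column total in the parental libraries only, yet its TMM CPM was 1.82, 2.19 and 2.21 in the knockout libraries and 1.69, 1.87 and 1.75 in the parental libraries, with overlapping groups.

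LINC01320 had a wide spread among the parental libraries. It had 0.180, 0.139 and 0.138 TMM CPM in the knockout libraries, against 4.31, 0.524 and 2.45 in the parental libraries. The second parental library was well below the others, though still above every knockout library. The log2 fold change was -3.99 with an SE of 1.00, -3.26 without the first parental library and -4.45 without the second. For comparison, the median coefficient of variation over the 128 rows was 7.03% in the knockout libraries and 5.4% in the parental libraries, against 78.0% for LINC01320 in the parental libraries.

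The fold changes at both ends were set beside the most extreme ones in the whole table. For 3 rows of knockout only and 8 of parental only, the lower mean was under 1% of the higher one, between 0.622% for LINC03018 and 0.928% for LINC02691. Across the table, 3990 rows had a mean of at least 20000 counts in the parental libraries, and the 20 of them that were lowest in the knockout libraries kept a median of 0.674% there. Of 3251 such rows in the knockout libraries, the 20 lowest in the parental libraries kept a median of 0.537%. The shares of these 11 rows lie close to those medians, which come from rows chosen as the lowest and do not mark a floor. Whether the low counts are RNA of those cells was not tested.

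Next to the level of 2 CPM of the column total, the rows just inside were LINC01943, LINC02861 and LINC02709, at 2.01, 2.02 and 2.04 CPM in the knockout libraries. Just outside were LINC01905 at 1.97 CPM in the knockout libraries, and LINC01355 and LINC01096 at 1.97 and 1.96 CPM in the parental libraries. LINC01905 had a log2 fold change of 5.77, similar in size to those of rows inside.

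GENCODE 29 gave a position for 123 of the 128 rows, with 16 on chromosome 2, 13 on chromosome 1 and 9 on chromosome 7. These genes have a median of 3 exons and 2212 exonic bases in the longest transcript and a median span of 13614 bases. Log2 fold changes below 0 were found for 75 of the 128 rows, among them all 6 on chromosome 19 and all 5 on chromosome 12. All tested genes on these chromosomes were not counted, so no pattern by chromosome is read from this. Exons were shared with another gene of the table by 38 rows. For each row only the gene with the largest shared length was kept. That gene was coding for 3 rows, so smaller overlaps with coding genes are not counted. LINC00461, known as the host of the neural microRNA hairpin MIR9-2, had 2.78, 2.74 and 2.62 TMM CPM in the knockout libraries against 3.11, 3.31 and 3.29 in the parental libraries, a log2 fold change of -0.25 with an SE of 0.089 and an adjusted p of 0.0146 by edgeR.

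Some rows lie on top of each other, and the strand of the libraries is not stated, so their counts may be mixed. LINC01116 and LINC01117 run in opposite directions on chromosome 2 and share 222 exonic bases. LINC01116 had 17.4, 17.2 and 16.1 TMM CPM in the knockout libraries against 7.08, 7.48 and 7.0 in the parental libraries, while LINC01117 had 1.66, 1.52 and 1.73 TMM CPM in the knockout libraries against 5.10, 5.22 and 5.23 in the parental libraries, so the pair differed in direction. LINC00526 and LINC00667 share 773 exonic bases on chromosome 18 and had log2 fold changes of -0.37 and 0.56. The 2 identifiers of LINC01605 also differed. The longer gene, ENSG00000253161, had 8.95, 8.93 and 9.15 TMM CPM in the knockout libraries against 1.23, 1.35 and 1.18 in the parental libraries. The shorter one, ENSG00000253414, which GENCODE 29 places inside it on the same strand, had 4.28, 4.57 and 4.38 TMM CPM in the knockout libraries against 7.96, 8.08 and 8.04 in the parental libraries, a log2 fold change of -0.86 with an SE of 0.069 and an adjusted p of 1.67e-10 by edgeR. Near-identical copies are a further source of doubt: LINC00623, LINC00869, LINC01138 and LINC01145, on chromosome 1, had counts that were not whole in any library, and log2 fold changes of 2.08, 1.40, 1.66 and 3.04. Reads shared between copies are split by likelihood, so these 4 values are uncertain, and only 21 of the 128 rows had counts within 0.01 of a whole number in all 6 libraries.

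The coding genes beside the LINC rows were not used to choose them. The nearest coding gene on each side was taken from GENCODE 29 at any distance, which reached 2226789 bases for PCDH9 and LINC00355. Beside the rows of knockout only, 32 of 47 tested neighbours rose and 7 fell, and the median neighbour had a log2 fold change of 0.87. Beside the rows of parental only, 29 of 98 rose and 63 fell, and the median was -0.90. Beside the rows of both, 28 of 65 rose and 24 fell, and the median was 0.08. Over all tested genes 36.3% were called higher and 37.5% lower. With the total count in place of TMM, 28 rose and 13 fell beside knockout only, 19 rose and 70 fell beside parental only, and 17 rose and 39 fell beside both, so more neighbours still rose than fell beside knockout only, and more fell than rose beside parental only. Some coding genes stand beside several rows, so neighbours are not independent.

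For 120 rows an overlapping or adjacent coding gene was tested, and the tested one with the nearest start was taken. A nearer gene that was not tested, such as CELA3A for LINC00339, was passed over. The log2 fold change of the coding gene had the same sign as the LINC row's in 77 cases. These were 21 of 26 for knockout only, 36 of 54 for parental only and 20 of 40 for both. Across the 120 pairs Spearman's rho was 0.48 and Pearson's r was 0.54, as a description across genes of the same libraries. Signs were shared by 2 of 4 pairs within 1000 bases, 23 of 42 between 1000 and 50000 bases and 52 of 74 beyond that. The LINC rows of the farther pairs also had larger fold changes, with median absolute log2 values of 0.71, 1.24 and 2.89 in the same order.

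**Figure D4:**
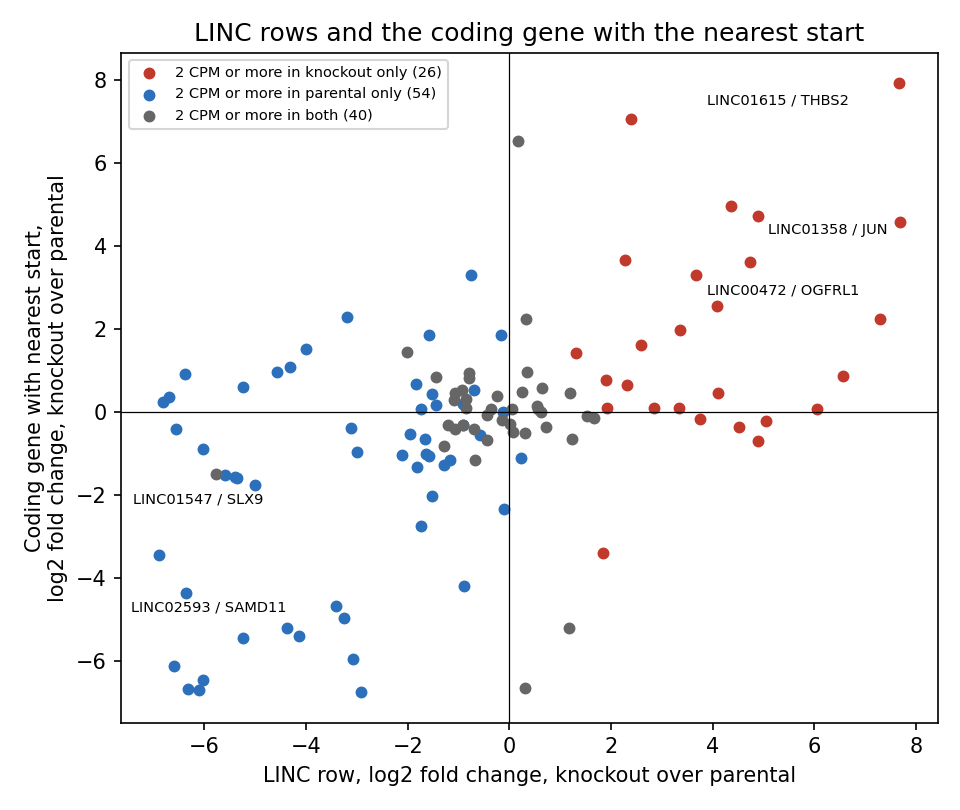
Log2 fold change, knockout over parental, of each LINC row (x axis) and of the tested coding gene whose start lies nearest (y axis), for 120 rows coloured by the genotype in which the row reached 2 CPM. Of the 26 rows of knockout only 21 lie in the upper right part, and of the 54 rows of parental only 36 share the sign of the coding gene.

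LINC01615 lies 52855 bases from THBS2, which encodes thrombospondin 2, a protein of the extracellular matrix. THBS2 averaged 1782 ± 112 TMM CPM in the knockout libraries and 7.33 ± 0.253 in the parental libraries (SD, n = 3 each), a log2 fold change of 7.93 (edgeR adjusted p = 5.41e-27). SMOC2, 484646 bases away on the other side, fell, with a log2 fold change of -1.10 (edgeR adjusted p = 7.99e-05). LINC00973 stands between DCBLD2, a membrane receptor gene 79368 bases away, and the collagen gene COL8A1, 655378 bases away. DCBLD2 and COL8A1 rose by log2 fold changes of 4.59 and 7.95 (edgeR adjusted p = 8.49e-25 and 5.34e-27). LINC00472 has OGFRL1 on one side, at 91.6 ± 6.47 TMM CPM in the knockout libraries and 9.34 ± 0.368 in the parental libraries (SD, n = 3 each), a log2 fold change of 3.29 (edgeR adjusted p = 3.27e-22). LINC00511 has SLC39A11, a metal ion transporter gene, 5476 bases away, with a log2 fold change of 0.09 (edgeR adjusted p = 0.194). On its other side, 163670 bases away, SOX9, a transcription factor of cartilage and neural crest, rose by a log2 fold change of 1.10 (edgeR adjusted p = 4.59e-15). LINC00839 had no such partner: ZNF33B, its nearer neighbour, had a log2 fold change of 0.08 (edgeR adjusted p = 0.223).

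A further 4 pairs were picked after their values were seen. LINC01358 lies between JUN, an AP-1 subunit gene 149315 bases away, and FGGY. JUN averaged 519.1 ± 8.55 TMM CPM in the knockout libraries and 19.4 ± 1.12 in the parental libraries (SD, n = 3 each), a log2 fold change of 4.74. CCN2, a matrix protein and target of the Hippo pathway, lies 180541 bases from LINC01013 and had a log2 fold change of 7.07. CXCL12, a chemokine made by stromal cells, lies 474731 bases from LINC00840 and had a log2 fold change of 7.90. ZNF32, nearer on the other side at 196404 bases, had -0.71. EFNB2, an ephrin ligand, lies 105415 bases from LINC00460 and had a log2 fold change of 4.97. LINC01358, LINC01013 and LINC00840 themselves had log2 fold changes of 4.88, 2.39 and 4.89.

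Beside LINC01547, both neighbours fell. ITGB2, the beta subunit of the leukocyte integrins, lies on the same strand, 824 bases beyond the end of LINC01547 and 7924 bases from start to start. ITGB2 averaged 0.776 ± 0.0637 TMM CPM in the knockout libraries and 51.0 ± 4.56 in the parental libraries (SD, n = 3 each), a log2 fold change of -6.04 (edgeR adjusted p = 1.97e-22). SLX9, the head-to-head gene, whose yeast counterpart acts in ribosome assembly, averaged 22.3 ± 0.415 TMM CPM in the knockout libraries and 63.0 ± 4.60 in the parental libraries (SD, n = 3 each), a log2 fold change of -1.50 (edgeR adjusted p = 1.78e-16). The head-to-head pair of LINC00205 was unequal, with POFUT2, a protein fucosyltransferase gene, at 135.2 ± 5.67 TMM CPM in the knockout libraries and 28.3 ± 1.79 in the parental libraries (SD, n = 3 each), a log2 fold change of 2.25 (edgeR adjusted p = 1.04e-19) beside the 0.33 of LINC00205.

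Among rows of parental only, LINC02593 lies 2911 bases from SAMD11. SAMD11 averaged 1.93 ± 0.0494 TMM CPM in the knockout libraries and 71.1 ± 6.04 in the parental libraries (SD, n = 3 each), a log2 fold change of -5.20 (edgeR adjusted p = 2.95e-24). On the other side of LINC02593, 57418 bases away, LINC01128 rose. LINC01278 overlaps SPIN4, which fell, with a log2 fold change of -5.41 (edgeR adjusted p = 8.91e-21). LMO3, a LIM-domain factor known in neuroblastoma, lies beside LINC02378 and fell, with a log2 fold change of -6.13 (edgeR adjusted p = 1.79e-24). The protocadherin gene PCDH9, 2226789 bases from LINC00355, fell by 3.41 on the log2 scale (edgeR adjusted p = 3.16e-16). ENSG00000285566, 17665 bases from LINC00355 on the other side, had a log2 fold change of -4.37 (edgeR adjusted p = 2.12e-05). Its mean was only 0.06 TMM CPM in the parental libraries. Beside LINC03018 FAM110B fell by 3.45 on the log2 scale (edgeR adjusted p = 7.05e-21). BPNT2, on the other side of LINC03018, rose by 0.71 on the log2 scale (edgeR adjusted p = 1.39e-11).

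Other neighbours went the opposite way. VEGFA, the vascular growth factor gene, lies 214092 bases from LINC03040. VEGFA averaged 585.9 ± 62.3 TMM CPM in the knockout libraries and 176.5 ± 6.90 in the parental libraries (SD, n = 3 each), a log2 fold change of 1.73 (edgeR adjusted p = 9.15e-12). ARPP21, 1076067 bases from LINC01811, rose by 3.64 on the log2 scale (edgeR adjusted p = 2.20e-19). MREG, whose start is nearest to that of LINC00607, had a log2 fold change of -3.41 while LINC00607 itself had 1.83. FN1, the fibronectin gene on the other side of LINC00607, had 1.61. LINC00607, MREG and FN1 were picked after their values were seen.

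Long noncoding RNAs with names of their own did not follow 1 direction either. Of a list of 40, 37 were tested, and 11 rose (29.7%), 15 fell (40.5%) and 11 did not pass, against 36.3% called higher and 37.5% called lower over all tested genes. Their median was 0.08 on the log2 scale, against -0.06 over all tested genes. HCP5, in the major histocompatibility region, averaged 12 ± 0.305 TMM CPM in the knockout libraries and 0.168 ± 0.0309 in the parental libraries (SD, n = 3 each), a log2 fold change of 6.16 (edgeR adjusted p = 1.52e-22). CYTOR, which shares 405 exonic bases with LINC01943 on the opposite strand, had 48.1 ± 2.40 TMM CPM in the knockout libraries and 7.10 ± 0.446 in the parental libraries (SD, n = 3 each), a log2 fold change of 2.76 (edgeR adjusted p = 1.09e-20). EWSAT1, a long noncoding RNA known as a target of EWS-FLI1, had 0.265 ± 0.0446 TMM CPM in the knockout libraries and 4.53 ± 0.195 in the parental libraries (SD, n = 3 each), a log2 fold change of -4.09 (edgeR adjusted p = 7.74e-18). DLX6-AS1 had a log2 fold change of -3.91 (edgeR adjusted p = 4.09e-17).

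The nuclear RNA exosome degrades many unstable noncoding RNAs with the help of adaptor complexes. Of its 28 listed subunits and adaptors, all were tested, 6 rose (21.4%), 17 fell (60.7%) and 5 did not pass, against 36.3% called higher and 37.5% called lower over all tested genes. The median of the 28 was -0.42 on the log2 scale, against -0.06 over all tested genes. With the total count in place of TMM, 1 rose and 26 fell, and the median of all tested genes moved by -0.42 under that scaling. EXOSC5, EXOSC7 and EXOSC2, subunits of the core ring and its cap, fell, with log2 fold changes of -1.83, -1.50 and -1.32 (edgeR adjusted p = 1.90e-17, 5.51e-17 and 5.03e-16). RBM7, an RNA-binding adaptor, rose by 1.42 on the log2 scale (edgeR adjusted p = 3.98e-16), with 42.4, 41.0 and 38.8 TMM CPM in the knockout libraries against 14.6, 15.9 and 15.3 in the parental libraries. The part of these genes in the LINC levels was not tested.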

How the data were processed

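RNA of 3 knockout and 3 parental A673 libraries was enriched with oligo-dT beads and sequenced on an Illumina NovaSeq, per the labels' protocols. The authors deposited 1 table of estimated counts per gene. The submitters' processing notes name kallisto 0.48.0, which estimates transcript abundance without full alignment and splits reads that match several transcripts, and the genome build hg38. The annotation release, the filters and the strand setting were not given in the sources used here.

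For the test, run with edgeR 4.0.16 under R 4.3.3, the deposited estimated counts were rounded: filterByExpr (minimum count 10, minimum total count 15), TMM, and a robust quasi-likelihood fit with genotype as its only term. Two-sided p-values were adjusted by Benjamini-Hochberg over 28485 tested rows, at 0.05. The biological coefficient of variation was 7.53%. The steps were tested on simulated counts in which few genes changed, evenly up and down. In the data 73.8% of tested genes were called, so that simulation does not bear on the choice of scaling. TMM factors were 0.848 to 0.888 in the knockout libraries and 1.14 to 1.17 in the parental libraries. Replicate pairs differed by more than sampling noise, with a chi-square per degree of freedom between 11.1 and 78.1.

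The LINC rows and lists were chosen with earlier results of these data known. Genes named were EWSR1 and FLI1; the 8 most abundant rows of each single-genotype class and the 10 of both; the 5 largest and 5 smallest log2 fold changes; 3 rows on each side of the level; rows within 0.2 of a log2 fold change of 0; coding neighbours of these; and 4 genes of each list. Not every neighbour that this rule names is given a value here. Others are named as picked later, or where an overlap, a spread or a motif concerns them. Adjusted p-values are given for rows meeting the level in both genotypes and for genes that are not LINC rows. Positions are from GENCODE 29 and promoter windows from RefSeq, GRCh38.p14. Alternatives covered scaling, filter, DESeq2 1.42.0, a replicate term, left-out libraries and the level of the rule.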

Additional observations from a re-analysis of the deposited data

How the results depend on the processing

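The calls of rows that met the level in 1 genotype only are largely fixed by the choice, so the counts over all 128 rows do not measure stability. Over DESeq2 size factors, the DESeq2 Wald test, no filter on low counts, upper quartile factors and the total count, 41 to 49 LINC rows were called higher and 72 to 79 lower, against 48 and 72. Without each library in turn the counts were 48 to 50 higher and 70 to 72 lower, and the share ratio was 0.504 to 0.516. The share ratio without collagen rows was 0.547. With the level at 1 CPM 206 rows were taken, 72 higher and 121 lower, and at 5 CPM 60 rows, 24 higher and 35 lower. With an average of 2 CPM over all libraries 34 of 90 rows were higher and 50 lower, and with TMM CPM 53 of 127 were higher and 67 lower.

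Of the 46 rows that met the level in both genotypes, 14 were called higher and 25 lower with the total count, against 21 and 21 with TMM. The total count alone moved the median log2 fold change of all tested genes by -0.42, and it left 33.0% of calls higher, against 49.1% with TMM (upper quartile factors: -0.20 and 40.5%). Under it 13 neighbours of knockout-only rows fell (7 with TMM), 19 of parental-only rows rose (29), 17 of both rose (28) and 39 fell (24), and of the exosome list 1 rose (6) and 26 fell (17). Upper quartile factors left 2 of that list higher. Log2 fold changes that turned negative with the total count were -0.0951 for LINC00205, -0.17 for LINC00294, -0.42 for LINC01670, -0.37 for LINC00265, -0.36 for LINC02035, -0.26 for LINC01410, -0.14 for PLD5P1, -0.35 for ZNF33B, -0.36 for RALA, -0.24 for CDK13, -0.13 for SETD1B, -0.073 for PDCD6IP, -0.34 for SLC39A11, -0.19 for MRGBP, -0.32 for ZNF703, -0.35 for ZBTB14, -0.10 for PLGLB1, -0.0935 for HIPK3 and -0.0403 for FLI1. With upper quartile factors they were -0.20 for LINC01670, -0.15 for LINC00265, -0.14 for LINC02035, -0.0382 for LINC01410, -0.13 for ZNF33B, -0.14 for RALA, -0.0237 for CDK13, -0.12 for SLC39A11, -0.11 for ZNF703 and -0.13 for ZBTB14. LINC01670 was -0.0219 with no filter. KMT2E, at -0.000736 with TMM, was 0.0252 with DESeq2 size factors, 0.0199 with the Wald test and -0.0289 to 0.0517 without single libraries. Without single libraries LINC02035 was -0.0232 to 0.17, LINC00265 -0.0275 to 0.16 and LINC01002 -0.26 to 0.0579. The cause was not tested beyond the shift itself.

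Replicate numbers did not pair the libraries: the correlations of same-numbered deviations were -0.02, -0.02 and -0.01 over 28485 genes. With a replicate block 48 LINC rows were called higher and 71 lower, and LINC01089 had an adjusted p of 0.05 (edgeR). Precision is set by replicate spread for rows of several CPM, and by counting for rows under 0.1 TMM CPM, where a library holds few counts.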
